A study of Drosophila melanogaster with 14 samples.

Results

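The fourth chromosome of Drosophila melanogaster carried 274 of the 29537 peaks that the series holds over 5 lists of chromatin immunoprecipitation followed by sequencing (ChIP-seq). They were taken by a single rule, a chromosome name of exactly 4, which uses no measured value, so that their number, overlaps, widths and scores could all be compared with the 23296 peaks on the arms 2L, 3L, 3R and X. Yki, the coactivator Yorkie, was mapped in wing imaginal discs of third-instar (L3) larvae (1 library, 42 peaks on chromosome 4) and in whole embryos of 8 to 16 hours (3 libraries, 62 peaks). GAF, the GAGA factor encoded by Trithorax-like (Trl), was mapped in wing discs (2 libraries, 41 peaks) and embryos (3 libraries, 65 peaks). H3K4me3, histone H3 trimethylated at lysine 4, was mapped in embryos (2 libraries, 64 peaks). Input chromatin was sequenced from wing discs (2 libraries) and from embryos (1 library), and no peak list of input was used here. All 14 libraries came from the strain Iso1, and the labels name no mutation, transgene or treatment in any group. Whole embryos mix all tissues of the stage, whereas the disc is a single epithelial organ.

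The fourth, or dot, chromosome is the smallest autosome of the fly. Most of it is packed as heterochromatin, with the heterochromatin protein HP1a and many remnants of transposons between and within its genes, yet many of its genes are actively transcribed. Yki carries growth signals of the Hippo pathway to DNA through partners such as Scalloped. GAF binds GA-rich DNA and helps to keep promoters free of nucleosomes, and H3K4me3 marks the start of active genes. 

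Each antibody and tissue has 1 deposited list, so no replicate values exist and sequencing depth is unknown. Peaks are not replicates: the intervals (95%, Wilson for shares) and p-values cover counting error alone, and the range over the 4 arms is given as the spread between chromosomes. Genes under the peaks were not analysed here, because no annotation of the dm3 build of the lists was at hand. On dm3 the peaks of the 5 lists on chromosome 4 spanned positions 61862 to 1272834, or 1.21 Mb.

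Yki peaks were denser on chromosome 4 than on the arms in embryos and sparser in wing discs. The embryo Yki list held 51.2 peaks per Mb of chromosome 4 (exact Poisson interval 39.3 to 65.6), against 29.8 on the arms together and 26.6 to 32.6 on single arms. That is 1.72 times the density of the arms (1.32 to 2.21; exact conditional binomial test, two-sided, adjusted over 5 lists p = 0.000398). The wing disc Yki list held 34.7 peaks per Mb (25.0 to 46.9), against 52.6 on the arms and 46.2 to 57.1 on single arms, a ratio of 0.660 (0.475 to 0.893; exact adjusted p = 0.00977). Chromosome 4 thus lay above all 4 arms for Yki in embryos and below all 4 arms for Yki in wing discs. GAF showed 33.9 peaks per Mb in wing discs (24.3 to 45.9) against 51.3 on the arms, also a ratio of 0.660 (0.473 to 0.896; exact adjusted p = 0.00977). In embryos GAF showed 53.7 peaks per Mb on chromosome 4 against 52.2 on the arms (ratio 1.03, 0.792 to 1.31), and H3K4me3 showed 52.9 against 52.4 (ratio 1.01, 0.776 to 1.29), with no difference detected for either (exact adjusted p = 0.900 for both).

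**Figure D1:**
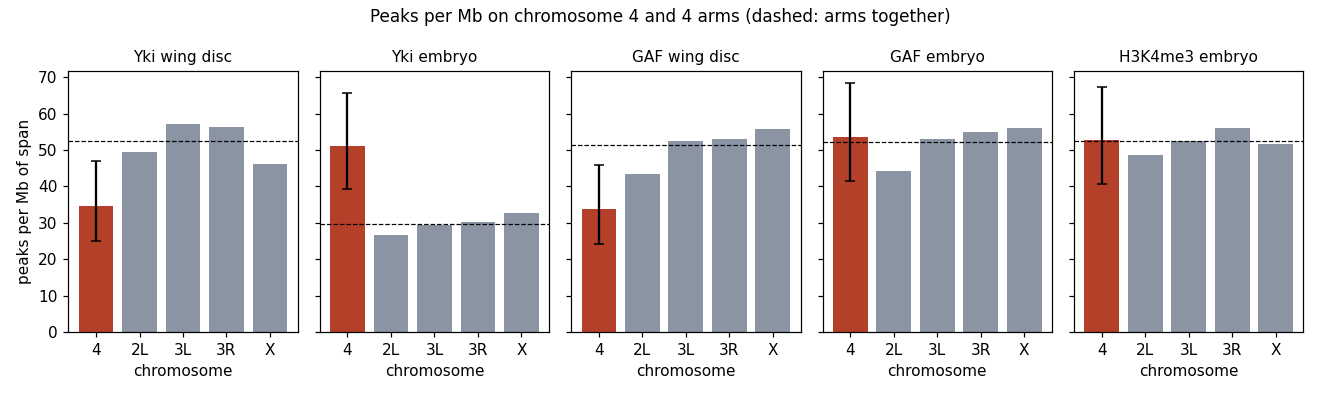
Peaks per Mb of span (y axis) on chromosome 4 (red, with exact Poisson 95% interval) and on the arms 2L, 3L, 3R and X (grey), 1 panel per list, with the arms together as a dashed line. Chromosome 4 stands above every arm for Yki in embryos (51.2 per Mb) and below every arm for Yki and GAF in wing discs (34.7 and 33.9 per Mb).

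As a share of each list, which does not depend on the span, chromosome 4 held 0.810% (0.600 to 1.09) of the Yki wing disc peaks and 2.09% (1.63 to 2.67) of the Yki embryo peaks on these 5 sequences. Wing disc over embryo gave an odds ratio of 0.383 (0.258 to 0.569), with p = 9.58e-06 by a two-sided Fisher's exact test after adjustment over the 6 contrasts. In the top 50% of both lists it was 0.176 (0.0795 to 0.390). That top 50% was taken by score in wing discs and by width in embryos, which are unlike measures. GAF differed in the same direction, with 0.810% (0.598 to 1.10) in wing discs and 1.26% (0.987 to 1.60) in embryos, an odds ratio of 0.642 (0.433 to 0.951; exact adjusted p = 0.0469 by the same Fisher's test). This GAF contrast was no longer called among the 50% of peaks with the highest score or, in embryos, the greatest width (odds ratio 0.729, 0.391 to 1.36). Within embryos, Yki had a larger share on chromosome 4 than GAF (odds ratio 1.67, 1.18 to 2.38; Fisher's exact adjusted p = 0.0102) and than H3K4me3, of which 1.23% lay there (1.71, 1.20 to 2.43; adjusted p = 0.0102). Neither embryo contrast was called in the widest 50% of each list, where the odds ratios were 1.90 and 1.19. In wing discs the shares of Yki and GAF were equal to 3 digits (odds ratio 1.00, 0.649 to 1.54), while among the 50% with the highest scores the odds ratio of Yki over GAF was 0.459 (0.198 to 1.07) and was not called. Peak calling may have differed between the embryo and the wing disc lists, and this cannot be told apart from a difference between tissues.

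Most Yki peaks of the arms overlapped GAF, and most Yki peaks of chromosome 4 did not. In wing discs, 12 of 42 Yki peaks on chromosome 4 (28.6%, 17.2 to 43.6) shared at least 1 bp with a GAF peak, against 63.4% on the arms, where single arms ran from 59.2 to 70.2%. Chromosome 4 over the arms gave an odds ratio of 0.231 (0.118 to 0.453), with p = 2.61e-05 by a two-sided Fisher's exact test after adjustment over the 16 overlaps. In embryos, 18 of 62 Yki peaks (29.0%, 19.2 to 41.3) lay on GAF peaks, against 71.2% on the arms and 67.1 to 74.5% on single arms. This odds ratio was 0.166 (0.0953 to 0.289; Fisher's exact adjusted p = 2.38e-10). In both tissues chromosome 4 was thus far below the lowest arm. Seen from GAF, 10 of 41 wing disc peaks (24.4%, 13.8 to 39.3) lay on Yki, against 52.0% on the arms (odds ratio 0.298, 0.146 to 0.610; exact adjusted p = 0.00101 by Fisher's test). In embryos, 15 of 65 GAF peaks (23.1%, 14.5 to 34.6) lay on Yki, against 33.2% on the arms, and this difference was not called (odds ratio 0.602, 0.337 to 1.08; exact adjusted p = 0.115). The odds ratio of chromosome 4 over the arms did not differ detectably between the tissues for Yki on GAF (ratio of wing disc over embryo 1.39, 0.584 to 3.33) or for GAF on Yki (0.495, 0.197 to 1.24). These shares also depend on how much of the span the other list covers. GAF peaks covered 2.28% of chromosome 4 in wing discs and 3.71% in embryos, against 4.97% and 4.95% of the arms. Yki peaks covered 1.56% and 2.46%, against 2.84% and 1.67%. The part of coverage in these differences was not tested.

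Median widths of Yki peaks, and scores of wing disc Yki peaks, were lower on chromosome 4 than on the arms, as given further on. Of these differences only that in score was called. For Yki on GAF, the width and the score of the Yki peaks were allowed for separately, and the width of the GAF peaks was not. Over quartiles of peak width the Mantel-Haenszel odds ratio of Yki on GAF was 0.235 (0.113 to 0.488) in wing discs and 0.185 (0.106 to 0.324) in embryos. Over quartiles of the deposited score it was 0.302 (0.150 to 0.610) in wing discs, where the lists carry one. With a reciprocal overlap of 50%, which left 4 Yki peaks on chromosome 4 in each tissue, the direction held and neither difference was called (odds ratios 0.417 in wing discs and 0.366 in embryos). Among the 50% of wing disc peaks with the highest scores, Yki on GAF was not called (0.374, 0.0891 to 1.57). Seen from GAF over quartiles of width, the odds ratio was 0.403 (0.177 to 0.914) in wing discs and 1.06 (0.507 to 2.19) in embryos, where the direction turned.

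**Figure D2:**
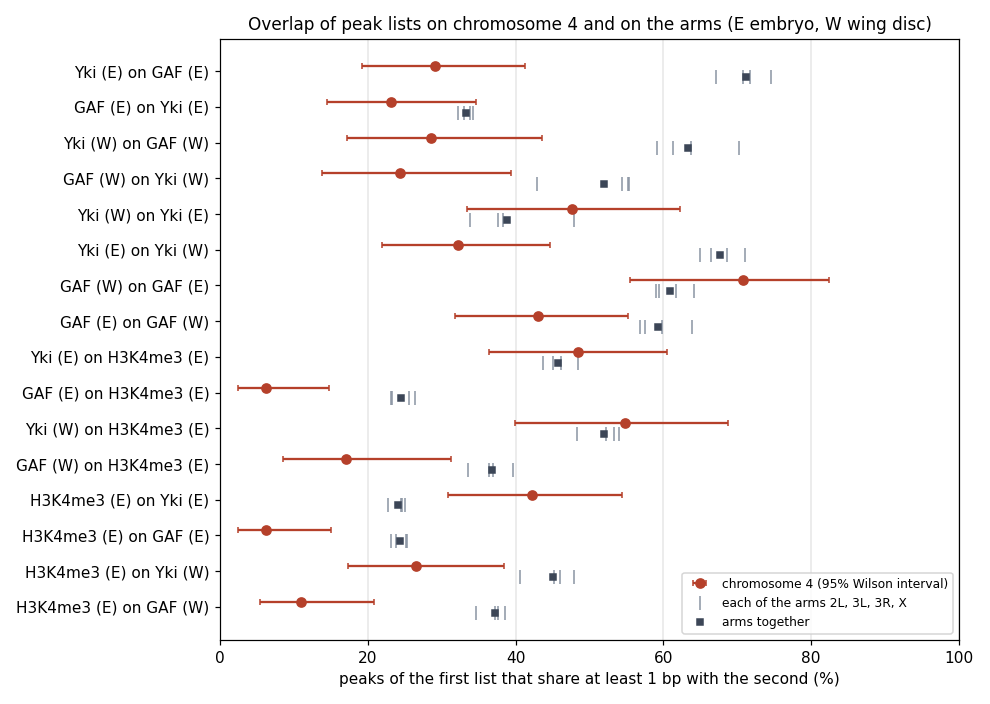
Share of peaks of the first list that share at least 1 bp with the second (x axis, %), for chromosome 4 (red points with 95% Wilson intervals), the arms together (dark squares) and each arm (grey ticks). Yki on GAF stands at 28.6% in wing discs and 29.0% in embryos on chromosome 4, left of every arm, whereas Yki on H3K4me3 overlaps the range of the arms.

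GAF met embryo H3K4me3 less often on chromosome 4 than on the arms, and for Yki no such difference was detected. The mark was not mapped in wing discs, so wing disc peaks were set against that of another tissue and stage. Of the Yki wing disc peaks on chromosome 4, 23 of 42 (54.8%, 39.9 to 68.8) overlapped an embryo H3K4me3 peak, against 52.0% on the arms, a difference of 2.81 points with an interval of -12.1 to 16.9. Of the Yki embryo peaks, 30 of 62 (48.4%, 36.4 to 60.6) did so, against 45.8% on the arms, a difference of 2.63 points (-9.48 to 14.9). For GAF, 7 of 41 wing disc peaks (17.1%, 8.53 to 31.3) overlapped H3K4me3, against 36.7% on the arms (odds ratio 0.354, 0.157 to 0.801; Fisher's exact adjusted p = 0.0139). In embryos 4 of 65 GAF peaks (6.15%, 2.42 to 14.8) overlapped H3K4me3, against 24.4% on the arms (odds ratio 0.203, 0.0736 to 0.559; exact adjusted p = 0.000657 by the same test). With overlap of at least 1 bp, the odds ratio of chromosome 4 over the arms was 5.48 times as large for Yki as for GAF in embryos (1.77 to 17.0), which was called by a Wald test after adjustment over 7 comparisons, with the lists treated as independent. This contrast between the proteins depended on how overlap was defined. Midpoints within 500 bp gave a ratio of 1.53 (0.385 to 6.10), and a reciprocal overlap of 50% gave 1.02 (0.0620 to 16.8). The Yki odds ratio was below 1 under both (0.570 and 0.259). It was not called over quartiles of width either (4.69, 1.48 to 14.9) or in the widest 50% of the lists (3.38, 0.649 to 17.6). In wing discs the same ratio was 3.16 (1.14 to 8.75) and was not called after adjustment. The GAF differences themselves were called neither with midpoints within 500 bp (0.598 in wing discs and 0.372 in embryos), which left 4 wing disc and 3 embryo peaks of GAF on chromosome 4, nor with a reciprocal overlap of 50% (0.635 and 0.254), nor in the top 50% of the lists (0.383 and 0.372). Over quartiles of width the wing disc difference was not called (0.444, 0.194 to 1.02).

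From the side of the mark, H3K4me3 peaks of chromosome 4 met embryo Yki more often, and wing disc Yki and GAF of both tissues less often, than those of the arms when 1 shared bp was enough. Of its 64 H3K4me3 peaks, 27 (42.2%, 30.9 to 54.4) met a Yki embryo peak, against 24.1% on the arms (odds ratio 2.30, 1.40 to 3.79; Fisher's exact adjusted p = 0.00350). Only 4 (6.25%) met a GAF embryo peak, against 24.3% (odds ratio 0.208, 0.0754 to 0.573; exact adjusted p = 0.000835). Wing disc Yki was met by 17 (26.6%, 17.3 to 38.5), against 45.0% (0.442, 0.253 to 0.772; exact adjusted p = 0.00598), and wing disc GAF by 7 (10.9%, 5.40 to 20.9), against 37.2% (0.207, 0.0945 to 0.456; adjusted p = 2.61e-05). None of the 4 differences was called with midpoints within 500 bp or with a reciprocal overlap of 50%. The odds ratios were then 0.380 and 0.259 for embryo GAF, 0.382 and 0.408 for wing disc GAF, and 0.823 and 0.648 for wing disc Yki. The excess of embryo Yki was not called with midpoints within 500 bp (odds ratio 1.13, 0.536 to 2.38) and turned with a reciprocal overlap of 50%, which left 1 peak on chromosome 4 (0.454, 0.0626 to 3.29). With edges no more than 500 bp apart the odds ratio was 3.71 (2.22 to 6.21), under a definition picked once the data had been seen: 41 of 64 H3K4me3 peaks (64.1%) had a Yki embryo peak that near, against 32.4% on the arms. Shares seen from the mark also depend on the density of the other list. Chromosome 4 over the arms, that density was 1.72 for embryo Yki and 1.03 for embryo GAF. It was 0.660 for both wing disc lists, and the part of density in these differences was not tested.

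The midpoints of the Yki peaks were placed relative to the mark as follows. In wing discs, 20 of the 42 Yki peaks on chromosome 4 had their midpoint inside an H3K4me3 peak and 3 overlapped one with the midpoint outside. In embryos, 13 of 62 had the midpoint inside, 17 overlapped with the midpoint outside, and 10 more lay 1 to 500 bp away. As shares of all embryo Yki peaks these classes took 21.0%, 27.4% and 16.1% on chromosome 4, against 28.9%, 16.8% and 11.7% on the arms. For wing disc Yki the midpoint was inside in 47.6% and outside an overlapped peak in 7.14%, against 42.0% and 9.98%. On these counts more embryo Yki peaks reached the mark from its border than lay within it, and the difference between tissues was not tested. Of the embryo Yki peaks that overlapped the mark, 17 of 30 (56.7%, 39.2 to 72.6) had the midpoint outside, against 36.8% on the arms. The odds ratio of 2.24 (1.08 to 4.66) was not called after adjustment over 4 lists (Fisher's exact p = 0.0345, adjusted p = 0.138), and this test was chosen after the data were seen. For the other lists the same share was 13.0% against 19.2% on the arms (Yki wing disc, 3 of 23), 42.9% against 37.7% (GAF wing disc, 3 of 7) and 25.0% against 43.3% (GAF embryo, 1 of 4). GAF embryo peaks lay over 500 and up to 5000 bp from the nearest H3K4me3 peak in 27 of 65 cases (41.5%, 30.4 to 53.7) on chromosome 4 and in 22.3% on the arms, while 47.7% and 47.6% lay farther away.

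**Figure D3:**
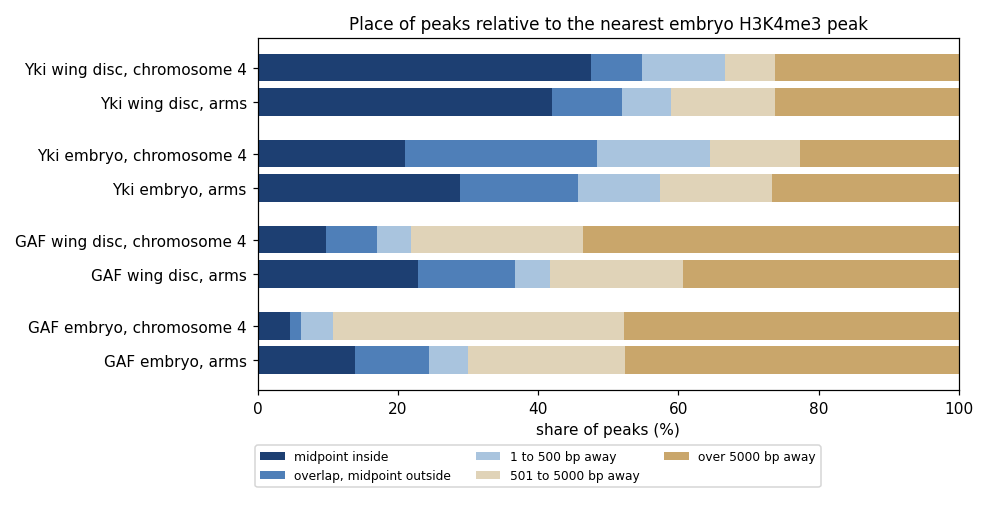
Share of peaks (x axis, %) by place relative to the nearest embryo H3K4me3 peak, for 4 lists, each with chromosome 4 above the arms. The blue overlap classes of GAF shrink on chromosome 4 (17.1% in wing discs and 6.15% in embryos), while the Yki overlap classes together take 54.8% in wing discs and 48.4% in embryos, against 52.0% and 45.8% on the arms.

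Yki peaks of chromosome 4 were then sorted by both neighbours, GAF of the same tissue and embryo H3K4me3. In wing discs, 17 of 42 (40.5%) lay on H3K4me3 without GAF, against 22.2% on the arms, and 13 (31.0%) lay on neither, against 14.5%. In embryos, 27 of 62 (43.5%) lay on H3K4me3 without GAF, against 16.9%, and 17 (27.4%) on neither, against 11.9%. Both neighbours were present at 6 wing disc (14.3%) and 3 embryo (4.84%) peaks, against 29.8% and 28.8% on the arms. GAF peaks of chromosome 4 were mostly alone in this sense: 29 of 41 in wing discs (70.7%) and 49 of 65 in embryos (75.4%) met neither Yki of the same tissue nor H3K4me3, against 39.5% and 59.6%. These shares describe classes already counted above and were not tested separately.

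Embryo Yki peaks were found again in wing discs less often on chromosome 4 than on the arms. There, 20 of 62 (32.3%, 22.0 to 44.6) overlapped a wing disc Yki peak, against 67.7% on the arms and 64.9 to 71.0% on single arms (odds ratio 0.228, 0.133 to 0.390; Fisher's exact adjusted p = 1.91e-07). In the other direction, 20 of 42 wing disc Yki peaks (47.6%, 33.4 to 62.3) overlapped an embryo Yki peak, against 38.8% on the arms, a difference that was not called (odds ratio 1.43, 0.780 to 2.63; exact adjusted p = 0.305). Over quartiles of score, which allow for the lower scores of chromosome 4, the odds ratio was 2.69 (1.40 to 5.18), in a fit picked once the data had been seen. The shares in both directions depend on the number of peaks in each list. Chromosome 4 held 42 wing disc and 62 embryo Yki peaks, and the arms held 5141 and 2909. How far these numbers account for the differences was not tested. Of the 20 embryo Yki peaks found again, 15 lay on H3K4me3. Of the 42 not found again, 15 lay on H3K4me3. On the arms 57.5% of those found again and 21.1% of the others lay on the mark.

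Embryo GAF peaks, too, were found again less often on chromosome 4, and wing disc GAF peaks showed no called difference. Of the GAF wing disc peaks on chromosome 4, 29 of 41 (70.7%, 55.5 to 82.4) overlapped a GAF embryo peak, against 60.9% on the arms (odds ratio 1.55, 0.789 to 3.05; Fisher's exact adjusted p = 0.305). Of the GAF embryo peaks, 28 of 65 (43.1%, 31.8 to 55.2) overlapped a wing disc peak, against 59.3% (odds ratio 0.519, 0.316 to 0.850; exact adjusted p = 0.0154). Over quartiles of width the first was called (2.93, 1.42 to 6.08) and the second was not (0.670, 0.396 to 1.13). These shares, too, depend on peak numbers, which was not tested. Chromosome 4 held 41 wing disc and 65 embryo GAF peaks, and the arms held 5018 and 5107. The 12 wing disc GAF peaks with no embryo partner scored from 8.49 to 48.17 with a median of 14.95, and the 29 with one from 7.75 to 487.68 with a median of 65.89. The arms showed the same order, with medians of 15.75 without and 99.74 with an embryo partner.

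Merging all peaks that share at least 1 bp over the 5 lists gave 156 sites on chromosome 4 and 10400 on the arms. A single list was present at 94 sites of chromosome 4 (60.3%, 52.4 to 67.6), against 53.6% on the arms, and all 5 lists at 3 sites (1.92%, 0.656 to 5.50), against 7.67%. The commonest classes were embryo GAF alone (33 sites, 21.2% against 17.3% on the arms), H3K4me3 alone (32 sites, 20.5% against 20.9%) and GAF of both tissues without the other lists (15 sites, 9.62% against 7.13%). Of 31 combinations compared with the arms, a comparison chosen after the data were seen, 3 were called higher and 1 lower. Embryo Yki with H3K4me3 and no other list made up 12 sites (7.69%, 4.45 to 13.0), against 0.356% on the arms (23.3, 11.9 to 45.7, as an odds ratio; Fisher's exact p = 1.27e-10, adjusted over the combinations). Embryo Yki alone made up 14 sites (8.97%), against 1.81% (5.36, 3.04 to 9.45; exact adjusted p = 2.55e-05), and Yki of both tissues with H3K4me3 made up 9 (5.77%), against 1.52% (3.97, 1.99 to 7.92; adjusted p = 0.00846). Sites with all 5 lists were the class called lower (0.236, 0.0751 to 0.741; exact adjusted p = 0.0265). All 4 classes follow from the overlaps and densities above and are not independent of them. They rest on 1 shared bp and were not recomputed under another definition. At some sites embryo Yki met only the border of the mark, as at 380209 to 380533 with H3K4me3 from 380525 to 381907. At others it lay within the mark, as at 1046543 to 1046742. H3K4me3 on embryo Yki had odds ratios of 1.13 with midpoints within 500 bp and 0.454 with a reciprocal overlap of 50%, neither called. Alone means only that no bp was shared with another list. Most sites of embryo Yki alone lay within 500 bp of an H3K4me3 peak, as at 214555 to 214930 and 1081538 to 1082088. Others lay farther away, as at 742568 to 743134.

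**Figure D4:**
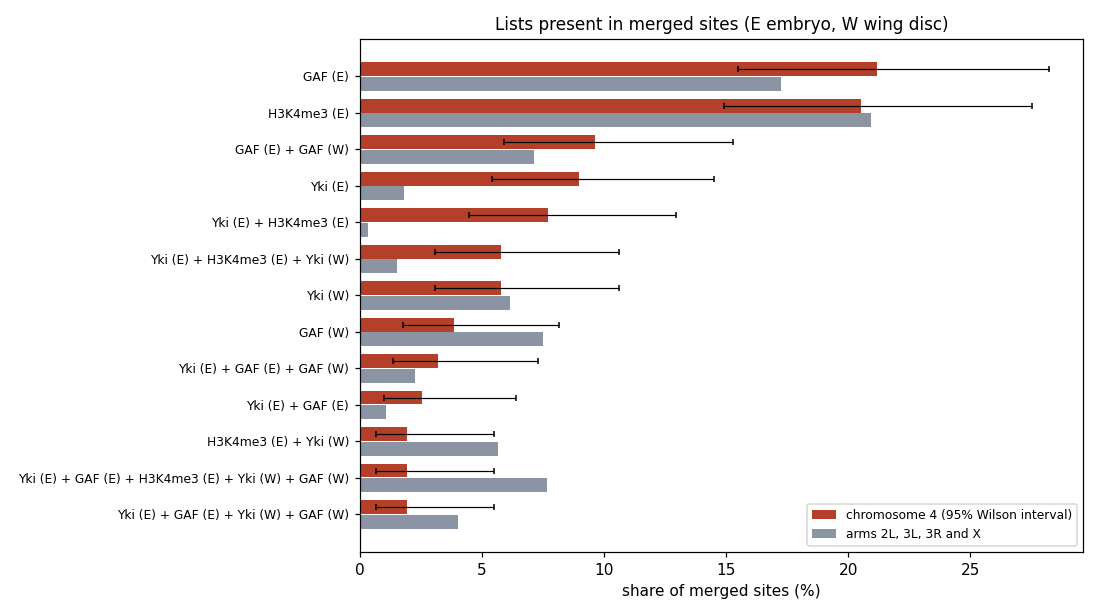
Share of merged sites (x axis, %) by the lists present, for the classes with at least 3 sites on chromosome 4 (red, 95% Wilson interval) and the arms (grey). Sites of embryo Yki with H3K4me3 alone take 7.69% on chromosome 4 and 0.356% on the arms, and sites with all 5 lists 1.92% and 7.67%.

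GAF wing disc peaks were narrower on chromosome 4 than on the arms, and no other list was called at the arms' median width. GAF wing disc peaks ran from 213 to 4463 bp in width with a median of 476 bp (317 and 670 at the quartiles), against 638 bp on the arms, and 11 of 41 (26.8%, 15.7 to 41.9) were wider than the arms' median, against 50% of the arms' own peaks (0.367, 0.183 to 0.733, as an odds ratio; Fisher's exact p = 0.0209, adjusted over 5 lists). GAF embryo peaks had a median of 443 bp against 586 bp, with 36.9% above the arms' median (49.9% of the arms' peaks; exact adjusted p = 0.113). Yki peaks had medians of 358.5 bp in wing discs against 417 bp, with 35.7% above (49.9% of the arms' peaks; exact adjusted p = 0.145), and of 404.5 bp in embryos against 440 bp, with 41.9% above (49.9%; adjusted p = 0.248). H3K4me3 was of middling width there, with a median of 1369 bp (quartiles 657.25 and 1680) against 1253 bp (565 and 2170). While 59.4% of its peaks on chromosome 4 exceeded the arms' median (50% of the arms' peaks; exact adjusted p = 0.208), fewer exceeded the arms' upper quartile (odds ratio 0.255, 0.102 to 0.636; adjusted p = 0.00350). The widest on chromosome 4 was 3910 bp.

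The deposited score, the authors' own and on a scale that no source used here states, ranks peaks within each wing disc list. Yki peaks on chromosome 4 scored from 5.99 to 39.97 with a median of 10.93, against a median of 13.63 on the arms and of 13.23 to 14.04 on single arms. Only 8 of 42 (19.0%, 9.98 to 33.3) scored above the arms' median, against 49.1% of the arms' peaks (0.244, 0.113 to 0.528, as an odds ratio; Fisher's exact p = 0.000152, adjusted over 2 lists). The difference was not called at the arms' upper quartile (0.420, 0.165 to 1.07). GAF peaks scored from 7.75 to 487.68 with a median of 22.99, against 34.18 on the arms, and 17 of 41 (41.5%, 27.8 to 56.6) were above the arms' median, against 50%, which was not called (0.709, 0.380 to 1.32; exact adjusted p = 0.347). Yki peaks with GAF had a median score of 10.025 and those without 10.93 on chromosome 4, against 15.765 and 11.36 on the arms. On chromosome 4 the median Yki score was thus no higher with a GAF partner, a contrast that was not tested. GAF peaks with Yki had a median of 168.785 and those without 19.78, against 112.18 and 18.8 on the arms, which was not tested either.

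**Figure D5:**
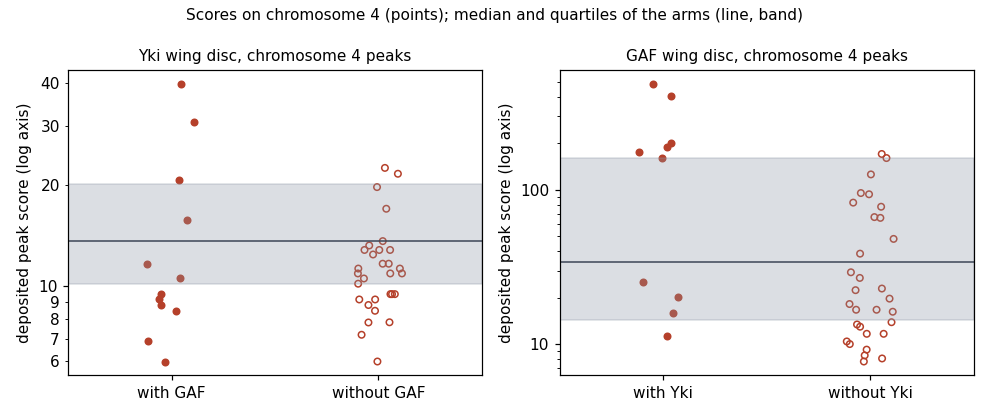
Deposited score (log axis) of each wing disc peak on chromosome 4, for Yki peaks with or without a GAF peak and GAF peaks with or without a Yki peak, over the median (line) and quartiles (band) of the arms. Most Yki points lie below the arms' median of 13.63 in both classes, and 6 of the 10 GAF peaks with Yki lie above the arms' upper quartile of 159.71.

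The most crowded place on chromosome 4 was a site from 521518 to 529549 on dm3, covered end to end by a single GAF embryo peak of 8032 bp, which ranked 22 of 6470 in its list by width. Under it lay 3 Yki embryo peaks, 2 GAF wing disc peaks, 4 Yki wing disc peaks and 1 H3K4me3 peak. The GAF wing disc peaks, at 521794 to 524270 and 525066 to 529528, had the 2 highest GAF scores on the chromosome (487.68 and 408.06, ranks 165 and 376 of 6328). Both highest Yki scores also lay there, at 528029 to 529407 (39.97, rank 255 of 6491) and 521926 to 522758 (30.83, rank 537). The Yki embryo peak at 528014 to 529367 was the widest of its list on the chromosome, with 1354 bp. H3K4me3, from 522431 to 524958, covered the lower-numbered part, and the Yki peak with the highest score lay outside the mark.

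The other 2 sites with all 5 lists were smaller. At 577042 to 579650, an H3K4me3 peak of 2609 bp held 2 Yki embryo, 2 Yki wing disc, 1 GAF embryo and 1 GAF wing disc peak, the last with a score of 176.86, while the Yki scores were 11.68 and 10.93. At 980242 to 981224, GAF had the third highest wing disc score of the chromosome (201.82, rank 1333), beside a Yki score of 10.56 and an H3K4me3 peak of 440 bp. The first site held 3 Yki wing disc peaks above the arms' median score and 1 below it (8.81, at 523379 to 523660, inside the GAF peak with the highest score), and at the other sites all Yki scores lay below that median.

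Several of the largest Yki and H3K4me3 peaks had no GAF. The 3 widest H3K4me3 peaks, at 682210 to 686119 (3910 bp), 1048318 to 1051675 (3358 bp) and 678680 to 681482 (2803 bp), each met embryo Yki and the last 2 met wing disc Yki, but none met GAF of either tissue. The third highest Yki score, 22.47 at 1051060 to 1051561, lay on the second of these. Around it the site from 1048318 to 1054355 joined 2 H3K4me3, 1 Yki embryo and 5 Yki wing disc peaks over 6038 bp, the second widest site of the chromosome, a site named after its values were seen. Yki also occurred without overlapping the mark or GAF, as at 150498 to 151460 (963 bp), the third widest Yki embryo peak, which met no other list. The second widest, at 808377 to 809428 (1052 bp), met GAF of both tissues but not H3K4me3 or wing disc Yki. Both lay within 500 bp of an H3K4me3 peak, at 149170 to 150439 and 806707 to 808301. GAF embryo peaks next in width, at 956218 to 958031 (1814 bp) and 475824 to 477482 (1659 bp), met embryo Yki and wing disc GAF without the mark.

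Wing disc GAF left the longest empty stretch of the 5 lists, and embryo peaks occurred in every 100 kb window up to the last peak. The 13 windows of 100 kb ended at position 1300000, with the window of the last peak, and any sequence beyond was not counted. Each held at least 1 Yki embryo, 1 GAF embryo and 1 H3K4me3 peak. Yki wing disc peaks were missing from 1 window and GAF wing disc peaks from 3. The longest distance between neighbouring GAF wing disc peaks was 301 kb, and 2 of the empty windows lay side by side, from 100001 to 300000. The longest distance was 133 kb for GAF embryo, 111 kb for Yki wing disc, 97.8 kb for Yki embryo and 94.8 kb for H3K4me3 peaks. The window from 400001 to 500000 held most peaks (37 over the 5 lists), with 13 GAF embryo, 8 GAF wing disc, 7 Yki embryo, 3 Yki wing disc and 6 H3K4me3 peaks. The next, from 500001 to 600000, held 36, with 10 Yki wing disc peaks. The first window held 30, with 8 Yki embryo and 7 GAF wing disc peaks. In 2 windows named after their values were seen, the numbers of Yki and GAF peaks were uneven. From 1000001 to 1100000 there were 8 Yki embryo and 7 Yki wing disc peaks with 7 H3K4me3 peaks, but 2 GAF embryo peaks and 1 GAF wing disc peak. From 900001 to 1000000 there were 10 GAF embryo and 5 GAF wing disc peaks with 4 Yki embryo and 2 Yki wing disc peaks. In that window the Yki embryo peaks at 925716 to 925925, 957069 to 957440 and 980479 to 981038 overlapped embryo GAF. The Yki wing disc peak at 980242 to 980902 overlapped wing disc GAF. The Yki peaks at 951442 to 951739 (embryo) and 915552 to 915927 (wing disc) did not overlap GAF of their tissue.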

How the data were processed

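Immunoprecipitated DNA was tagmented with Nextera transposase and amplified by PCR (12 cycles, fragments near 225 bp), per the labels' protocols. The values are the peak starts and ends deposited by the authors, in bp on dm3, and, in both wing disc lists, a score per peak deposited by the authors. CASAVA 1.7.0, BWA and Bowtie are named in the submitters' processing notes. Wing disc peak names begin with MACS, per the deposited lists. Not given in the sources used here: the caller of the embryo lists, thresholds, the treatment of replicates and of reads in repeats, and the use of input.

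Positions are counted from 1 in the text. Overlap means at least 1 bp shared. Density used the span from the first to the last peak of any list. Shares were compared with Fisher's exact test and densities with an exact binomial test, two-sided, with Benjamini-Hochberg adjustment and a threshold of 0.05. Python 3.11.15, numpy 2.4.6, pandas 2.3.3, scipy 1.17.1, statsmodels 0.14.6 and matplotlib 3.10.9 were used, and the overlap step was tested on simulated data. Named peaks were the 3 highest by score (wing disc) or width (embryo) per list, sites with all 5 lists and the 3 fullest windows. The peaks described and the tests were chosen with earlier results of these data known.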

Additional observations from a re-analysis of the deposited data

Results flagged for a closer look

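The contrast of chromosome 4 with the arms in overlap with H3K4me3 differed between the proteins in embryos when 1 shared bp was enough. The odds ratio was 1.11 for Yki and 0.203 for GAF, a ratio of 5.48 (1.77 to 17.0), past the threshold of 0.05 in a Wald test of the difference adjusted over 7 comparisons. Yki peaks lay on the mark in 30 of 62 cases and GAF peaks in 4 of 65. The ratio held its call without the X (5.46), against every other sequence (5.72) and with edges within 500 bp (4.79). It was not called over width quartiles (4.69), in the top 50% of the lists (3.38), with midpoints within 500 bp (1.53) or with a reciprocal overlap of 50% (1.02).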

How the results depend on the processing

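Of 203 alternative values for 41 results, 155 kept direction and call, 31 lost a call, 7 gained one and 10 turned direction. The cause was not tested. The 155 include results that were called in neither setting. The share of wing disc over embryo, Yki over GAF, was recomputed only in the top 50%. In its other settings the main value, 0.597, stands unchanged among the 155 and could not have differed. Leaving out the X, adding every other sequence or using all peaks as the denominator changed no direction or call, except that the uncalled ratio of wing disc over embryo for Yki on H3K4me3, 1.01, became 0.972 with every other sequence. Embryo Yki on wing disc Yki kept its call in every alternative run. The top 50% was taken by score in wing disc lists and by width in embryo lists. In the top 50% of each list, calls were lost for the share on chromosome 4 of GAF wing disc over embryo (odds ratio 0.729), embryo Yki over GAF (1.90) and embryo Yki over H3K4me3 (1.19), and for wing disc Yki on GAF (0.374), GAF on H3K4me3 (wing disc 0.383, embryo 0.372), H3K4me3 on embryo Yki (1.60) and on embryo GAF (0.237). The share of embryo GAF over H3K4me3 (0.625) and GAF wing disc on GAF embryo (0.582), neither called, turned. Over 100 kb windows that hold a peak, the density ratios of embryo GAF (0.933) and H3K4me3 (0.916) turned, uncalled.

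With a reciprocal overlap of 50%, calls were lost for embryo Yki on GAF (0.366), wing disc Yki on GAF (0.417), wing disc GAF on Yki (0.415), GAF embryo on GAF wing disc (0.746), GAF on H3K4me3 (wing disc 0.635, embryo 0.254), and H3K4me3 on embryo GAF (0.259), wing disc Yki (0.648) and wing disc GAF (0.408), while embryo Yki on H3K4me3 (0.259) and the converse (0.454) turned. With midpoints within 500 bp, calls were lost for GAF embryo on GAF wing disc (0.643), GAF on H3K4me3 (wing disc 0.598, embryo 0.372), and H3K4me3 on embryo Yki (1.13), embryo GAF (0.380), wing disc Yki (0.823) and wing disc GAF (0.382), and embryo Yki on H3K4me3 turned (0.570). Over width quartiles, embryo GAF on Yki turned (1.06), GAF wing disc on GAF embryo gained a call (2.93), and GAF embryo on GAF wing disc (0.670) and wing disc GAF on H3K4me3 (0.444) lost theirs. At the arms' upper quartile, embryo GAF width gained a call (0.422), H3K4me3 width turned and was called (0.255), and the Yki score lost its call (0.420). In 2 alternatives chosen after the data were seen, wing disc Yki on embryo Yki gained a call (2.42 with edges within 500 bp, 2.69 over score quartiles), as did GAF wing disc on GAF embryo (2.31 over score quartiles). Ratios of odds ratios were also recomputed after the data were seen: embryo Yki over GAF on H3K4me3 lost its call with reciprocal overlap (1.02), midpoints (1.53), width quartiles (4.69) and the top 50% (3.38), the wing disc ratio gained one with edges within 500 bp (3.54), and the share of wing disc over embryo, Yki over GAF, gained one in the top 50% (0.242).

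No paired analysis was possible because each antibody and tissue has 1 list, so that leaving out a replicate was not run either. The planned motif comparison was not run, since no dm3 genome was at hand. With 41 to 65 peaks per list on chromosome 4, wide intervals limit every comparison. Depth is unknown, so a missing peak does not show missing binding.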
